A study of Mus musculus with 6 samples.

Results

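Src and Arhgap22, 2 of the 59631 probes measured, are a pair of signalling genes of the cell's motility machinery that were both much brighter in Apc fl/fl hepatocellular carcinoma (HCC) than in Apc +/+ liver. They are 2 of 2114 genes that could be named by an mRNA accession, and each was measured by 1 probe with 1 spot per array, ASMM9PARTA028776 for Src (NM_009271) and ASMM9PARTA041464 for Arhgap22 (NM_153800). No other probe of the deposited table carried an mRNA accession of either gene. Both were chosen because the authors' table, which lists only probes called between these same groups, contains them. Their difference between the groups is therefore given as a description and was not tested.

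The RNA came from the liver of C57Bl/6 mice aged 12 months. One group was labelled APC fl/fl with HCC and the other APC +/+ with no tumour, with 3 arrays each. In the study's methods the fl/fl allele is a hypomorphic allele of Apc, a brake on Wnt/β-catenin signalling, and no Cre is described for these mice. Both groups held bulk liver tissue, in which fewer cells of a type and less RNA per cell cannot be told apart.

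Src is the founding member of the Src family of non-receptor tyrosine kinases. It is activated at integrins and growth factor receptors and phosphorylates focal adhesion and cytoskeletal proteins, which loosens adhesions and lets cells move. Arhgap22, also listed as p68RacGAP, is a GTPase-activating protein (RhoGAP) and switches off Rac, a small GTPase that drives the actin-rich protrusions at the front of a moving cell. Guanine nucleotide exchange factors (RhoGEFs) switch such GTPases on, and effectors such as the PAK kinases carry the signal to actin and myosin.

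Because both transcripts were higher in the same arrays, the 250 bases before a RefSeq start site of each are shown (build GRCm38.p6, both on the plus strand). Capitals mark a GC box and the remaining letters are in lower case. The Src window is chr2:157424043-157424292 and the Arhgap22 window is chr14:33216573-33216822.
Src: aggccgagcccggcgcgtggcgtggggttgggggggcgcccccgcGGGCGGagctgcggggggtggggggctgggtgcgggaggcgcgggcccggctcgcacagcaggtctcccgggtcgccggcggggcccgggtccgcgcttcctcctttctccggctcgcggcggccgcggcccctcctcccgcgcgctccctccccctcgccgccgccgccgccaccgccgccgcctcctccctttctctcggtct
Arhgap22: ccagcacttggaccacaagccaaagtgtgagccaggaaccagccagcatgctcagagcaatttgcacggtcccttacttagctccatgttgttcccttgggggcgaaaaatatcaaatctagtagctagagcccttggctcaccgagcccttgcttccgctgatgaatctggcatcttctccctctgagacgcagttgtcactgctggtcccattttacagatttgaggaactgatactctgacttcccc
Both windows lie inside the span that RefSeq gives the gene, from 157423906 to 157471838 for Src on chromosome 2 and from 33213994 to 33369936 for Arhgap22 on chromosome 14, since other transcripts of each gene start further upstream. The windows differed in base composition. G and C made up 82.8% of the Src window, more than in 99.5% of the 32851 windows of this length, and 51.6% of the Arhgap22 window, where the median window had 52.4%. The Src window held 40 CpG dinucleotides and the Arhgap22 window held 5, against a median of 6. A GC box (GGGCGG on either strand) was found once in Src, 205 bases before the start, and not in Arhgap22, and 32.7% of all windows held one. The core of the TCF/LEF site (CTTTGA on either strand), the TATA box (TATAAA on either strand) and the AP-1 site (TGANTCA) were in neither window. These letters were in 13.8%, 12.4% and 6.75% of all windows respectively.

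Arrays were compared before any average was taken. Apc fl/fl replicates 1 and 2 differed by less than the scanner's own error, with a mean chi-square per probe of 0.774, and were counted as 1 sample through their mean. Apc fl/fl replicate 3 stood far from both, at 14.9 and 15.1. The Apc fl/fl group therefore had 2 samples and the Apc +/+ group 3. The median processed intensity ranged from 38.9 to 61.8 between arrays, no spot was saturated, and 50.8% to 82.8% of probes were well above background. A floor was set by 20 negative-control probes, designed to bind no mouse RNA. The brightest of them lay between 5.12 and 5.69 on the normalised log2 scale, with a mean of 5.50 over the arrays. All arrays carried the same scan time. The scanner's barcode began with 1 for the tumour arrays and the first Apc +/+ replicate, and with 2 for Apc +/+ replicates 2 and 3. This digit was taken as the row of the slide, although the barcode does not name it as such.

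Src, the kinase, had a processed intensity of 11006, 9129 and 11294 on Apc fl/fl replicates 1, 2 and 3, and of 725, 614 and 652 on Apc +/+ replicates 1, 2 and 3. On the normalised log2 scale these signals were 13.26, 13.18 and 13.48 in Apc fl/fl HCC and 9.25, 9.34 and 9.27 in Apc +/+ liver. The groups did not overlap, with 3.83 log2 units between the dimmest Apc fl/fl array and the brightest Apc +/+ array. Apc fl/fl HCC had a mean of 13.35 ± 0.18 (SD, n = 2) and Apc +/+ liver one of 9.29 ± 0.05 (SD, n = 3), a log2 difference of 4.06 or 16.7-fold. The Apc +/+ arrays sat close together and the Apc fl/fl arrays nearly so.

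Arhgap22, the Rac-directed GTPase-activating protein, had a processed intensity of 11318, 9500 and 13486 on Apc fl/fl replicates 1, 2 and 3, and of 173, 120 and 173 on Apc +/+ replicates 1, 2 and 3. The normalised log2 signals were 13.30, 13.24 and 13.72 in Apc fl/fl HCC and 7.18, 7.04 and 7.26 in Apc +/+ liver. The groups lay 5.97 log2 units apart at their nearest arrays. The mean was 13.49 ± 0.32 (SD, n = 2) against 7.16 ± 0.11 (SD, n = 3), a log2 difference of 6.33 or 80.5-fold. Replicate 3 was the brightest array of its group on both sides. Among all tested probes, 17.4% had all Apc fl/fl arrays above all Apc +/+ arrays, as both genes did, and nothing follows from this for genes chosen on that contrast.

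**Figure D1:**
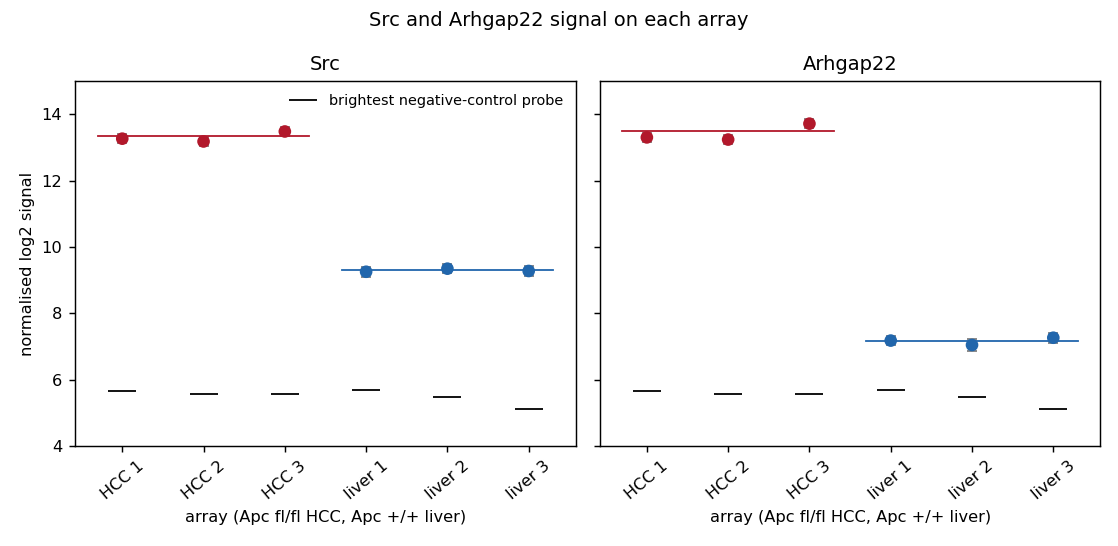
Normalised log2 signal (vertical axis) of Src (left) and Arhgap22 (right) on each of the 6 arrays (horizontal axis), red for Apc fl/fl HCC and blue for Apc +/+ liver. Error bars are the scanner's error estimate of the spot, horizontal lines are the group means with Apc fl/fl replicates 1 and 2 counted as 1 sample, and short black lines are the brightest negative-control probe of that array. Both genes sit above 13 on the Apc fl/fl arrays, while the Apc +/+ arrays lie near 9.29 for Src and 7.16 for Arhgap22, all above the black lines.

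Both probes measured a signal in each group rather than a bound. They were flagged well above background on 3 of 3 arrays in each group, with no spot saturated or marked as an outlier. That flag was also set on 8.25% to 57.6% of the negative-control spots of an array, so it is a weak limit alone. The local background was 19 to 24 intensity units throughout. The smallest distance to the brightest negative-control probe was that of Arhgap22 in Apc +/+ liver, where it lay 1.49 to 2.14 log2 units above it. Src lay 3.56 to 4.16 above it in the same arrays. In Apc fl/fl HCC the distances were 7.62 to 7.91 for Src and 7.65 to 8.15 for Arhgap22. The scanner's error estimate was 10.0% of the signal for Src in Apc fl/fl HCC and at most 11.7%, for Arhgap22 in Apc +/+ liver.

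The order of arrays within a group was mostly within that error. For Src the order was Apc fl/fl replicate 3, 1 and 2, followed by Apc +/+ replicate 2, 3 and 1. Apc fl/fl replicates 3 and 1 differed by 0.22 log2 units, 1.06 times their combined error, and replicates 1 and 2 by 0.08. The Apc +/+ arrays were 0.07 and 0.02 apart, within the error. The standard deviation of Src over the Apc +/+ arrays, 0.05, was smaller than that of all but 4.03% of tested probes, whose median was 0.26. For Arhgap22 the order was Apc fl/fl replicate 3, 1 and 2, then Apc +/+ replicate 3, 1 and 2. The step from Apc fl/fl replicate 3 to replicate 1 was 0.41, or 2.03 times the combined error, and was the only step between neighbours of one group, for either gene, that reached 2 times that error. The Apc +/+ arrays were 0.09 and 0.13 apart, and 17.0% of tested probes had a smaller standard deviation there. A table of called probes favours those with a small spread, so these shares describe the probes and compare them with nothing.

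Both genes were brightest on Apc fl/fl replicate 3. Src was 0.26 and Arhgap22 0.45 log2 units higher there than in the mean of replicates 1 and 2. Among the 1217 other named genes that were higher in Apc fl/fl HCC, replicate 3 was the highest of the Apc fl/fl arrays for 31.3% and the lowest for 66.1%. Marker genes also stood apart on this array. The linear normalised signals of the 9 named proliferation genes, such as Cdk1 and Plk1, summed to 9999 on replicate 3 against 14638 and 14726 on replicates 1 and 2, with Mcm2 alone higher on replicate 3. Of the leukocyte genes, the log2 signal of Cd74 was lower on replicate 3 (11.35 against 12.90 and 13.07) and that of Adgre1 higher (8.08 against 7.08 and 6.96). Higher on replicate 3 were also Lrat of stellate cells (6.09 against 4.64 and 4.82, both under the negative-control floor of 5.50) and Aqp1 (13.60 against 11.24 and 11.21). Spp1 was lower there (12.33 against 13.86 and 13.89). The 3 named hepatocyte genes summed to 22434 on replicate 3 against 47306 and 46386, with Cps1 alone not lower there. The 2 named endothelial genes summed to 197 against 157 and 164. Their part in the levels of Src and Arhgap22 was not tested.

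The size of both differences was recomputed under other processing. Over 14 alternatives the log2 difference of Src ranged from 3.89, in the authors' normalised values, to 4.27, with scaling to the 75th percentile, which is 14.9-fold to 19.3-fold. That of Arhgap22 ranged from 5.76, with normexp background correction, to 6.53, with scaling to the 75th percentile, which is 54.3-fold to 92.6-fold. Normexp, with its offset, raised the Apc +/+ mean of Arhgap22 from 7.16 to 7.72 and left its Apc fl/fl mean at 13.48. Within row 1 of the slide, where Apc +/+ replicate 1 was the single normal liver, the log2 difference was 4.10 for Src and 6.32 for Arhgap22. Without Apc fl/fl replicate 3, which left 1 Apc fl/fl sample, it was 3.93 and 6.11. Over the 14 alternatives the lowest Apc fl/fl sample stayed above the highest Apc +/+ sample, by at least 3.72 for Src and 5.49 for Arhgap22.

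**Figure D2:**
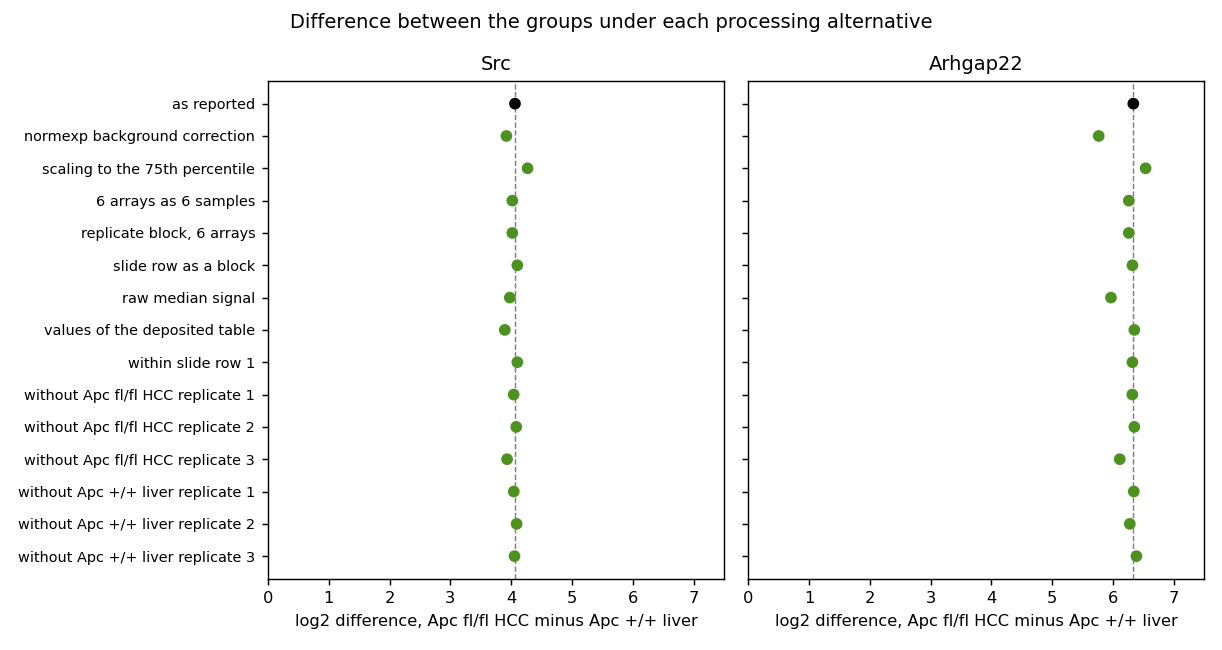
Log2 difference, Apc fl/fl HCC minus Apc +/+ liver (horizontal axis, starting at 0), of Src (left) and Arhgap22 (right) under the setting reported (black, dashed line) and under each of 14 alternatives (green, vertical axis). The values of Src lie between 3.89 and 4.27 and those of Arhgap22 between 5.76 and 6.53.

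The log2 difference of Arhgap22 was the 22nd highest and that of Src the 138th highest among 45640 tested probes, whose median difference was 0.06. Among the 2114 named genes Arhgap22 ranked 11th and Src 59th. These ranks restate the contrast on which both genes were chosen.

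The profile of each gene over the 6 arrays was compared with those of the other named probes, as the root mean square difference of log2 values, each centred on its own mean. Closest to Src were Cand2 (0.14), a regulator of cullin ubiquitin ligases, St6galnac2 (0.16), a sialyltransferase, Aldh3b1 (0.16), an aldehyde dehydrogenase, Prtn3 (0.16), a neutrophil serine protease, and Tmem74b (0.17). The median over 2238 probes was 1.49. Cand2, St6galnac2, Aldh3b1 and Prtn3 were, like Src, brightest on Apc fl/fl replicate 3, while Tmem74b was dimmer there than on the other Apc fl/fl arrays. The log2 differences of these 5 genes between the groups ran from 3.84 to 4.31, so that they bracketed that of Src. The liver mean of Cand2, 5.05, lay under the negative-control floor of 5.50.

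The profile nearest to Arhgap22 was that of Slc22a12 (0.15), a urate transporter, followed by Mfsd4a (0.27), a membrane transporter, Anxa13 (0.36), an annexin, Lif (0.37), a cytokine of the interleukin-6 family, and Tff2 (0.46), a trefoil factor of mucous epithelia. The median over 2238 probes was 2.60. Slc22a12, Mfsd4a and Lif were brightest on Apc fl/fl replicate 3, as was Arhgap22, and Anxa13 and Tff2 were dimmer there than on the other Apc fl/fl arrays. The liver means of Slc22a12, Mfsd4a, Anxa13 and Lif lay between 4.24 and 5.29, under the same floor, and that of Tff2 was 6.30. Arhgap22 and Src were 1.12 apart by this measure, with log2 differences between the groups of 6.33 and 4.06. Src was the 43rd nearest probe to Arhgap22, and Arhgap22 the 414th nearest to Src. All of these probes come from a table selected on the same contrast, and the likeness is a description over 6 arrays.

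**Figure D3:**
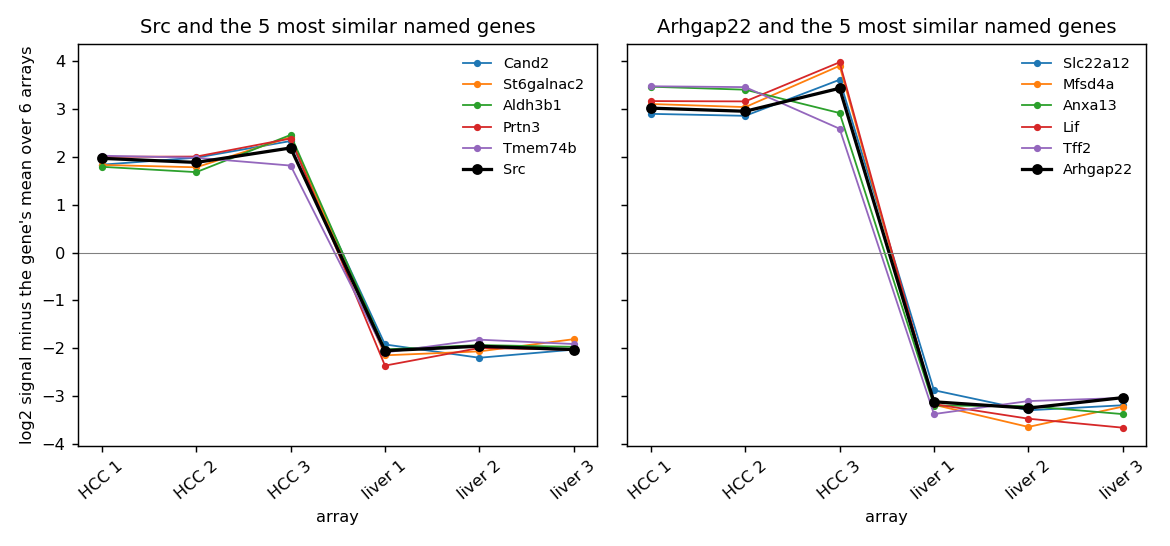
Log2 signal of each gene minus its own mean over the 6 arrays (vertical axis) on each array (horizontal axis), for Src (left, black) and Arhgap22 (right, black) with the 5 named genes of smallest root mean square difference to each. Lines join the values of one gene. The Src set stays within 0.14 to 0.17 of Src, while the Arhgap22 set spreads from 0.15 to 0.46, with Anxa13 and Tff2 falling where Arhgap22 is highest, on Apc fl/fl replicate 3.

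To place both genes in their pathway, 6 lists of Src and small GTPase signalling genes were examined, 294 genes besides Src and Arhgap22. A name existed for 45 of them, and a name came only with a place in the authors' table of called probes. These 45 were thus picked on this very contrast and carry no independent support. Among the 2112 named genes other than Src and Arhgap22, the arrays of the groups did not overlap for 99.9%. These 2112, called the other named genes here, include the 45. Of the 45, 29 were higher and 16 lower in Apc fl/fl HCC, and 7 rose and none fell past an adjusted p of 0.05 with at least 2-fold change (limma). Without adjustment, at the p of 0.05 and 2-fold change of the study's methods, 25 were higher and 14 lower. Over all tested probes the adjusted threshold was passed by 1.03% as higher and 0.896% as lower, 1.92% in all, and the unadjusted one by 5.36% and 5.85%. Over the other named genes 12.0% passed as higher and 7.29% as lower, and without adjustment 1076 and 825 of the 2112 did, or 50.9% and 39.1%, beside 55.6% and 31.1% of the 45. Of these other genes 57.6% were higher in Apc fl/fl HCC, beside 64.4% of the 45. The 7 pathway genes are 15.6% of 45. The median log2 difference was 1.20 over the 45 and 1.05 over the 2112. The count of 7 became 0 by limma without any one of the Apc +/+ replicates, where 36 to 37 passed unadjusted. No count is given without Apc fl/fl replicate 3, which left 1 Apc fl/fl sample. The count of 7 became 0 with the slide row as a block, where 28 passed unadjusted. That block left Apc +/+ replicate 1 as the only normal liver set against the tumours. With 6 arrays as 6 samples 20 passed as higher and 11 as lower, against 38.5% and 30.3% of the other named genes.

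Among the direct regulators of Src family kinases, Cblc, an epithelial ubiquitin ligase of the Cbl family, had log2 signals of 11.16, 11.13 and 9.87 in Apc fl/fl HCC and 9.51, 9.39 and 9.53 in Apc +/+ liver. The log2 difference was 1.03 (SE 0.41, adjusted p 0.281), and Apc fl/fl replicate 3, the array on which Src was brightest, was the dimmest of its group.

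Among Src substrates and focal adhesion proteins, 8 of 44 were named, 6 higher and 2 lower. Cav1, caveolin-1, a membrane scaffold that Src phosphorylates, had log2 signals of 15.25, 15.20 and 14.31 in Apc fl/fl HCC and 9.21, 9.54 and 9.62 in Apc +/+ liver. It rose by 5.31 (SE 0.34, adjusted p 0.0142), between the differences of Src and Arhgap22, but unlike both it was dimmest on Apc fl/fl replicate 3 within the tumours. Ezr, ezrin, which links the membrane to actin, rose by 2.67 (SE 0.30, adjusted p 0.0332). Zyx, the adhesion protein zyxin, differed by 1.22 (adjusted p 0.0639) and Stat3, a transcription factor activated by Src, by -1.51 (adjusted p 0.119).

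Of 24 small GTPases of this pathway and their dissociation inhibitors, 4 were named, 2 higher and 2 lower. None passed after adjustment (limma). All passed without it, as did 50.9% (higher) and 39.1% (lower) of the other named genes, which were picked on this contrast. Rac3, of the Rac class on which Arhgap22 acts, had log2 signals of 8.07, 8.12 and 8.87 in Apc fl/fl HCC and 7.30, 7.36 and 7.18 in Apc +/+ liver, a log2 difference of 1.20 (SE 0.29, adjusted p 0.115). Rhoc, a GTPase tied to invasion, differed by 1.55 (adjusted p 0.0615), and Rhob and Rhoh by -1.57 and -1.04.

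Within its own family of GTPase-activating proteins Arhgap22 had the largest difference of the named genes. Of 65 other family members 11 were named, with 7 higher and 4 lower. Arhgap27 rose by 1.89 (SE 0.24, adjusted p 0.0402) and was the only one past the threshold. Depdc1b, which carries a RhoGAP-like domain, differed by 3.88 (adjusted p 0.0766) from a liver mean under the negative-control floor. For Racgap1, which acts in cell division, the means of both groups, 5.27 and 3.60, lay under that floor, and no difference is given. Fam13a differed by -3.01 (adjusted p 0.0642). Srgap2 and Arhgap39, the latter lower, differed by 1.49 and -1.52.

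On the opposing side, 9 of 73 RhoGEFs were named, 4 higher and 5 lower. Fgd3, an exchange factor for Cdc42, had log2 signals of 9.26, 9.30 and 9.61 in Apc fl/fl HCC and 6.59, 6.55 and 6.75 in Apc +/+ liver. It rose by 2.82 (SE 0.21, adjusted p 0.0184) and, like Src and Arhgap22, was highest on Apc fl/fl replicate 3. Of the lower RhoGEFs, Arhgef37 differed by -2.53 (adjusted p 0.0627), with an Apc fl/fl mean of 3.77 under the negative-control floor, Itsn2 by -2.18 (adjusted p 0.122) and Dock6 by -2.11 (adjusted p 0.0742), none past the threshold.

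Of 74 effectors and actin regulators 11 were named, 8 higher and 3 lower. Pak1, a kinase activated by Rac and Cdc42, had log2 signals of 9.18, 9.25 and 9.29 in Apc fl/fl HCC and 5.0, 6.21 and 5.56 in Apc +/+ liver. It rose by 3.66 (SE 0.39, adjusted p 0.0286). Myl12a, a myosin light chain, rose by 2.10 (SE 0.19, adjusted p 0.0213), and Pak6 by 1.97 (SE 0.28, adjusted p 0.0482), the latter well above background on 5 of 6 arrays and with a liver mean, 5.28, under the negative-control floor. Mylk, the kinase of myosin light chains, differed by -2.13 (adjusted p 0.0867).

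**Figure D4:**
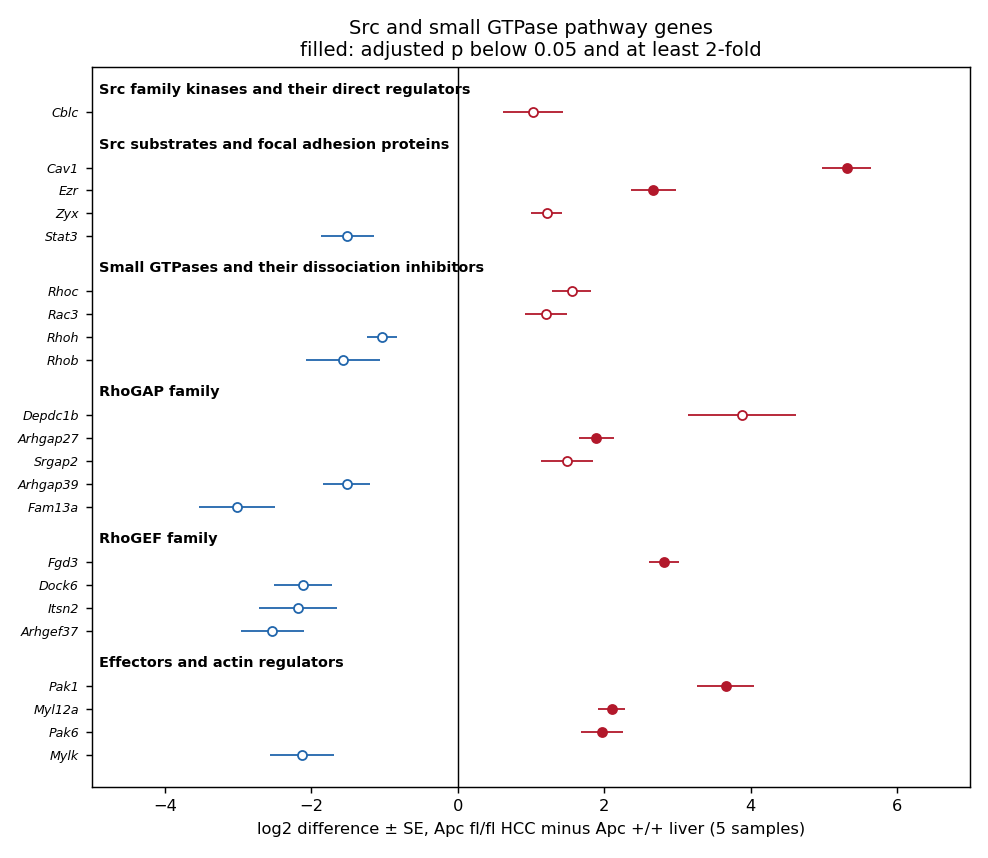
Log2 difference with its SE, Apc fl/fl HCC minus Apc +/+ liver (horizontal axis), of 22 pathway genes described in the text (vertical axis), red where higher and blue where lower, with filled symbols for an adjusted p below 0.05 and at least 2-fold change. The 7 filled symbols, Cav1, Ezr, Arhgap27, Fgd3, Pak1, Myl12a and Pak6, are all on the higher side.

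Markers of cell types that the tissue could hold were read only where the authors' table of called probes named them. Those shown were thus picked on this same contrast, and that they differ is no separate result. The arrays of the groups did not overlap for 99.9% of the 2112 named genes other than Src and Arhgap22. The 3 named of 10 hepatocyte genes, Apoa1, Cebpa and Cps1, were lower in Apc fl/fl HCC, with summed linear signals of 22434 to 47306 against 98366 to 168241. The 2 named of 12 leukocyte genes were higher, at 2879 to 8747 against 1276 to 1999. The 2 named of 10 endothelial genes, Eng and Pecam1, summed to 157 to 197 against 626 to 760, and the single named of 10 fibroblast and stellate cell genes, Lrat, was at 24.9 to 67.9 against 110 to 140, with an Apc fl/fl mean under the negative-control floor. The 2 named of 10 cholangiocyte genes went opposite ways. Spp1, osteopontin, was read by 5 probes. The brightest had log2 signals of 13.86, 13.89 and 12.33 in Apc fl/fl HCC and 7.41, 8.52 and 8.36 in Apc +/+ liver. It rose 32.1-fold (adjusted p 0.0351, limma). The other probes of Spp1 had log2 differences of 1.87 to 4.85, the smallest with an adjusted p of 0.0536 (limma). Aqp1, a water channel, differed by -1.87 (adjusted p 0.268), with groups that did not overlap. The sum of both, 17251 to 17559 against 16504 to 23473, therefore overlapped although neither gene did. The 9 named of 15 proliferation genes summed to 9999 to 14726 against 885 to 966. Of these, Cdk1, Aurka and Mcm6 had liver means of 5.43, 4.69 and 4.39, under the negative-control floor. None of these genes was listed at 0. Their part in the levels of Src and Arhgap22 was not tested.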

How the data were processed

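Liver RNA was measured on 6 single-colour arrays. The authors removed rRNA, labelled the rest by random priming, used an Arraystar mouse LncRNA array and extracted the scans with Agilent Feature Extraction (11.0.1.1). The deposited scanner files hold background-subtracted intensity per spot, not normalised between arrays. A second deposited table gives the authors' quantile-normalised log2 signal for the 4197 distinct probes they called differentially expressed.

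Control spots, 1200 negative-control spots and spots flagged as outliers were left out, spots of a probe were averaged as log2 intensity, and 59631 probes were quantile normalised, as in the study's methods. Probes well above background on at least 3 of 6 arrays (45640) were tested two-sided with limma 3.58.1 in R 4.3.3 (lmFit, then eBayes), without covariates and with Benjamini-Hochberg adjustment over all tested probes. Apc fl/fl replicates 1 and 2 were averaged, which left 5 samples. The limma step was tested on simulated data. Precision is limited by the number of arrays. The series text gives mice as the replicates.

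Names came from mRNA accessions of the deposited table through a RefSeq table of GRCm38.p6 (2239 of 2280 probes matched 1 symbol). Probe sequences, the exons they read and protein sequences were not used here. Where a gene had several probes, the brightest stood for it. Negative-control spots were placed on each array's normalised scale by interpolation.

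The members, the pathway and marker lists and the rule for named genes were chosen with earlier results of these data known. The rule named Src and Arhgap22, up to 6 genes of each pathway list (those past the threshold first, then by size of difference) and the 5 most similar profiles of each gene. Some genes that the rule named are not reported here. Alternatives were normexp (offset 50), scaling to the 75th percentile, other filters, 6 arrays as 6 samples, replicate or slide row as a block, the raw median signal, the authors' normalised values, eBayes with trend and robust, and leaving out each array.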

Additional observations from a re-analysis of the deposited data

How the results depend on the processing

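The direction of the Src and Arhgap22 differences held under all 14 alternatives. The Src difference of 4.06 moved by more than the spread between replicates with scaling to the 75th percentile alone (4.27), and the Arhgap22 difference of 6.33 with normexp (5.76) and with the raw median signal (5.96). Leaving out each array gave 3.93 to 4.09 for Src and 6.11 to 6.38 for Arhgap22. With the replicate number as a block they were 4.02 and 6.26, as for 6 arrays as 6 samples. Deviations of arrays with the same number correlated at 0.06, -0.07 and 0.04, so the numbers were not taken to pair the arrays, and the block gave 1075 probes and 8 pathway genes past the adjusted threshold. That threshold was passed by 878 probes, which became 1651 with normexp, 3441 with 6 arrays, 277 without a filter, 1966 with probes well above background on all 6 arrays, 1900 with trend and robust and 0 by limma with the slide row as a block, where 3964 passed the unadjusted threshold. Leaving out each array but Apc fl/fl replicate 3, whose absence left 1 Apc fl/fl sample, gave 0 to 973. The count was 1 without Apc +/+ replicate 2. It was 0 by limma without Apc +/+ replicate 1 or 3, where 5749 and 4326 passed unadjusted. The unadjusted threshold was passed by 5118, by 2983 with normexp, and by 4326 to 5749 when each array but Apc fl/fl replicate 3 was left out. For the 7 pathway genes the alternatives were chosen after seeing the data. They became 15 with normexp, 31 with 6 arrays, 3 without a filter and 18 with probes well above background on all arrays. The number was 17 with trend and robust and 0 by limma with the slide row as a block (28 at the unadjusted threshold). It was 0 to 7 when each array but Apc fl/fl replicate 3 was left out (36 to 40 at the unadjusted threshold). The slide-row block left Apc +/+ replicate 1 as the only normal liver set against the tumours, as row 2 held no Apc fl/fl array. Its differences, 4.10 for Src and 6.32 for Arhgap22, were those within row 1. Apart from this, and from the filters, which change how many probes are tested, the cause was not tested. Signal over background limits Arhgap22 in Apc +/+ liver most, as its fold there depends on the background correction.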
